A study of Mus musculus with 8 samples.

Results

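PDGF, FGF and HGF signaling was followed in primary mouse peritoneal mesothelial cells (MCs) through 10 genes, taken by symbol from the deposited expression table: the ligands Pdgfa, Pdgfb, Pdgfc, Fgf2, Fgf7 and Hgf and the receptors Pdgfra, Pdgfrb, Fgfr1 and Met. All 10 of these members were among the 13687 genes of the table, and all 10 passed the filter on low values that left 13665 genes for testing. The rule used symbols and no measured value, but the members were chosen with earlier results of these data known. On stretch, Met was lower and Pdgfrb higher in each of the 4 mice, and these were the only members past the threshold in the comparison over all mice. Between genotypes, Pdgfc and Fgf2 were lower in every CAV1-deficient culture than in every WT culture, as were 5.88% of all genes. Whether this difference was called depended on the test, and it was called in static cultures only. Pdgfra, Pdgfrb, Fgf7 and Hgf differed more between individual mice than between conditions.

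The 3 systems share a plan in which a secreted ligand brings receptor tyrosine kinases together, the receptors phosphorylate each other, and adaptors pass the signal to the RAS-ERK and PI3K-AKT routes. PDGF chains act mainly on cells of mesenchymal type, FGFs act on their receptors together with heparan sulfate, and HGF is made by stromal cells as an inactive precursor and acts on MET of epithelial-type cells. In the peritoneum these ligands are known as mitogens and motility factors of MCs, submesothelial fibroblasts and mural cells, and HGF is known for opposing TGF-β1-driven mesothelial-to-mesenchymal transition (MMT).

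The MCs came from WT mice and from CAV1-deficient littermates (Cav-1- in the labels, strain B6.Cg-CAV1tm1mls/J, CAV1-/- here), which lack caveolin-1, the main coat protein of caveolae, from the germ line and in every tissue. They were obtained by digesting parietal peritoneum, grown to confluence without stretch and then, for 24 h, left static or stretched mechanically. There were 2 WT and 2 CAV1-/- mice, each with 1 static and 1 stretched culture, which gave 8 RNAseq libraries in 4 groups of 2 cultures. Mouse ages are not given in the sources used here, both sexes were used, and mice are called replicate 1 and replicate 2 of their genotype below. Values are CPM, reads scaled to a common library total, normalized by the trimmed mean of M-values (TMM-normalized CPM), and rest on 9777738 to 21203938 reads per library. Depth followed stretching, with each stretched library above all static ones. The smallest amount taken as detectable, 3 reads, corresponds to 0.146 to 0.308 TMM-normalized CPM, and this floor covers counting error only.

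Cav1, the targeted gene, was read first as a check of the labels. WT MCs held 764 and 275 TMM-normalized CPM in static culture and 570 and 247 on stretch (replicates 1 and 2). CAV1-/- MCs held 34.5 and 18.9 in static culture and 20.0 and 12.8 on stretch, below every WT library. Its log2 fold change, CAV1-/- over WT, was -4.11 (SE 0.62, limma adjusted p = 0.102) in static and -4.47 (SE 0.62, limma adjusted p = 0.124) in stretched cultures and so did not pass the threshold of 0.05 in this fit. DESeq2 on the recovered reads called it in both (adjusted p = 1.21e-09 and 1.25e-11).

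The labelled cell type was compared with its markers. Of 12 mesothelial markers, 11 were in the table and Calb2 was not. Their summed level was 2406 to 3052 TMM-normalized CPM in WT libraries and 717 to 968 in CAV1-/- libraries. Upk3b, which encodes a uroplakin of the mesothelial surface, was at 202 to 545 in WT and at 3.15 to 111 in CAV1-/- libraries. Lrrn4, a transmembrane protein gene of mesothelium, was at 282 to 427 in WT and at 15.3 to 46.7 in CAV1-/- libraries. In all, 9 of the 11 were lower in every CAV1-/- than in every WT library, beside 5.88% of all genes. Wt1, a transcription factor of mesothelium, was at 94.9 to 133 in WT and at 74.9 to 138 in CAV1-/- libraries, and the keratin gene Krt19 at 21.7 to 65.9 and at 2.67 to 69.4, groups that overlapped. Fibroblast markers (10 of 10 in the table, led by Col1a1) summed to 12019 to 15029 in the libraries of replicate 1 of both genotypes and to 19504 to 28700 in those of replicate 2. Mural cell markers (7 of 9, without Rgs5 and Abcc9) summed to 649 to 1248 in replicate 1 and to 222 to 430 in replicate 2. Leukocyte markers (11 of 12, without Adgre1) summed to 4715 and 4760 in both libraries of CAV1-/- replicate 1 and to 70.6 to 449 in the other 6 libraries. Endothelial markers (5 of 8, without Pecam1, Tie1 and Erg) summed to at most 71.8 and adipocyte markers (2 of 5, without Adipoq, Cidec and Lep) to at most 28.6. In these bulk cultures, fewer cells of a type and less RNA per cell cannot be told apart. The part of these other cells in the results below was not tested, beyond the values given without CAV1-/- replicate 1.

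**Figure D1:**
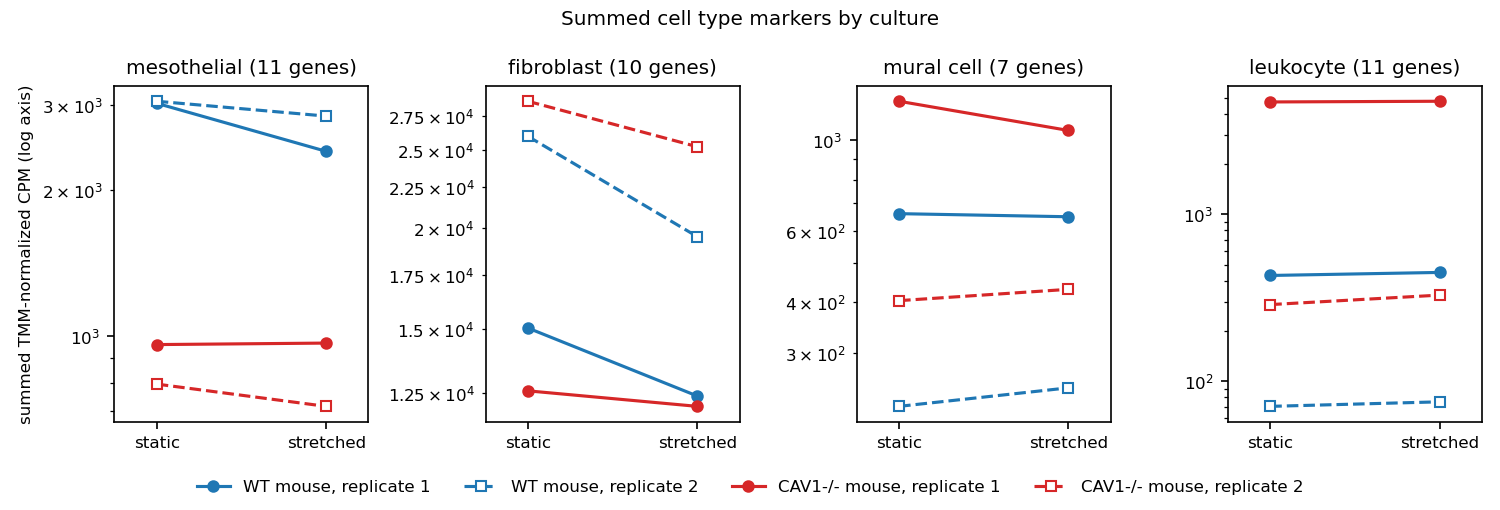
Summed TMM-normalized CPM (log axis) of mesothelial, fibroblast, mural cell and leukocyte markers in the static and stretched culture of each mouse; a line joins the 2 cultures of 1 mouse, and each panel gives the number of genes summed. The leukocyte sum of CAV1-/- replicate 1 lies at 4715 and 4760, and the mesothelial sums of all 4 CAV1-/- cultures lie at or below 968, under every WT culture.

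The level of each member, divided by the length of its merged exons so that genes could be set side by side, was read as TMM-normalized CPM per kilobase. Averaged over the 8 libraries, Pdgfra (34.7), Fgfr1 (33.5), Pdgfrb (25.2) and Met (19.1) stood above all 6 ligands. The receptors were thus the more abundant transcripts, and of the ligands Fgf7 (13.8), Pdgfc (10.7) and Pdgfa (8.82) came next. Fgf2 (4.07), Hgf (1.76) and Pdgfb (0.672) were the lowest. The order was loose, since most neighbours kept it in only 4 or 5 of 8 libraries. The exceptions were Pdgfa above Fgf2, seen in 7 of 8 libraries, and Fgf2 above Hgf, seen in 8 of 8. The highest-ranked receptor also varied most: Pdgfra ranged from 1.93 to 70.5 TMM-normalized CPM per kilobase, while Fgfr1 stayed between 25.2 and 40.0.

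**Figure D2:**
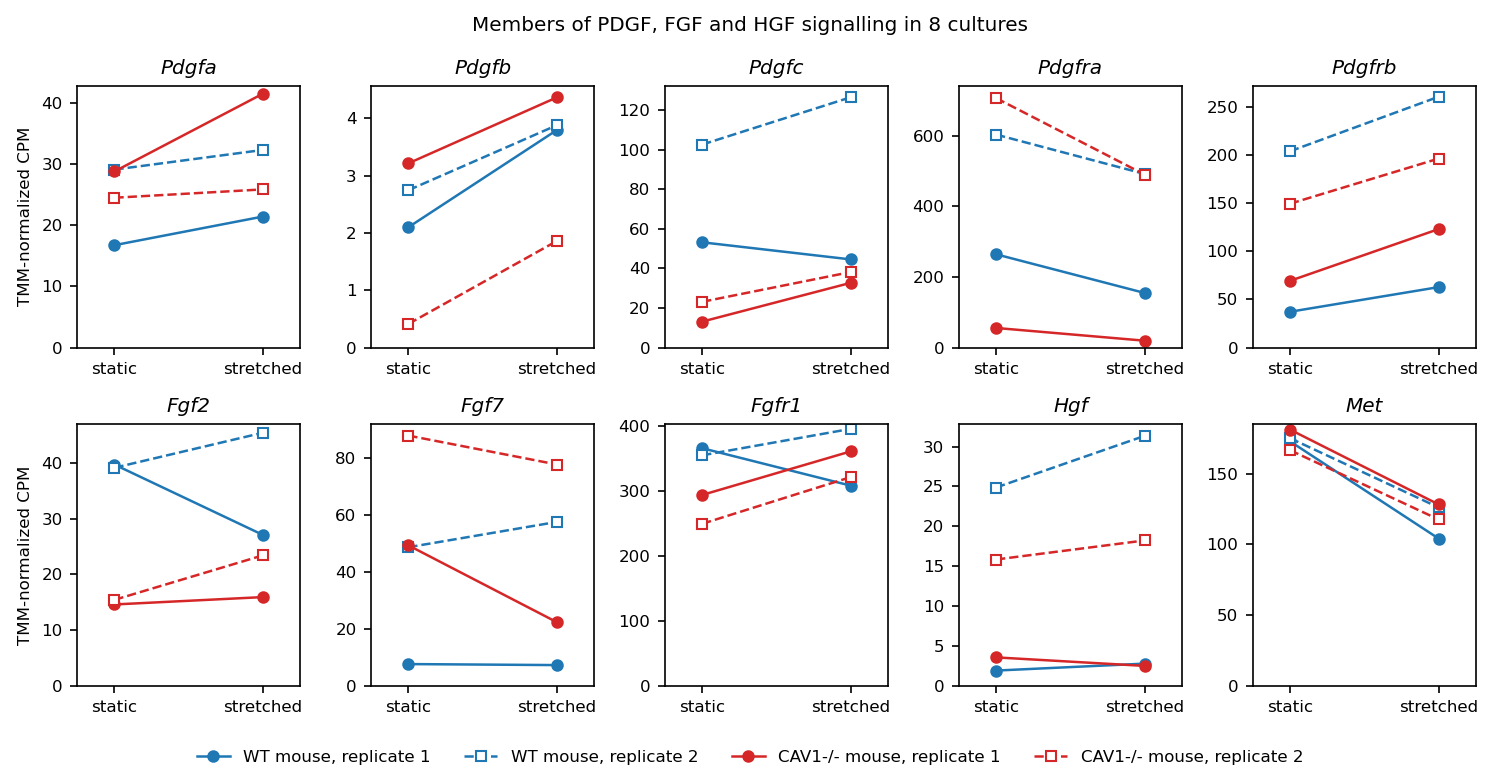
TMM-normalized CPM of the 10 members (linear axes from 0, a scale for each gene) in the static and stretched culture of each mouse, with a line joining the 2 cultures of 1 mouse. The 4 lines of Met fall together from 167 to 181 in static to 104 to 128 in stretched cultures, whereas those of Pdgfra, Fgf7 and Hgf are spread by mouse.

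The first comparison addressed what 24 h of stretch did to these genes. It was made within mice, as the average of stretched over static over the 4 mice, on log2(value + 1), a scale that understates changes of low genes. By limma with the mouse as a block, 308 of 13665 genes passed an adjusted p of 0.05 (2.25%), 141 of them higher (1.03%) and 167 lower (1.22%) on stretch. Of the 10 members, 2 passed it, Met lower and Pdgfrb higher. DESeq2 called 777 genes (5.69%) and the same 2 members. At an unadjusted p of 0.05 there were 6 members, Pdgfa, Pdgfb, Pdgfc, Pdgfra, Pdgfrb and Met, beside 21.6% of all genes. The 10 members had a median log2 fold change of 0.13, beside -0.01 over all genes. In direction alone, Pdgfa, Pdgfb and Pdgfrb were higher on stretch in all 4 mice, as were 14.5% of all genes, and Pdgfra and Met were lower in all 4, as were 16.9% of all genes.

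Met (ENSMUSG00000009376, chromosome 6 of GRCm38 from 17463800 to 17573980, plus strand) encodes the receptor of HGF. Static cultures held 173 and 175 TMM-normalized CPM in WT and 181 and 167 in CAV1-/- MCs. Stretched cultures held 104 and 126 in WT and 128 and 118 in CAV1-/- MCs. Static and stretched libraries did not overlap, and the 4 mice stood close together in each condition. Met fell by 39.8% and 28.0% in the WT mice and by 29.2% and 29.4% in the CAV1-/- mice. The average log2 fold change was -0.55 (SE 0.065, 95% interval -0.70 to -0.40, limma adjusted p = 0.0162). The quasi-likelihood test of edgeR (adjusted p = 0.0186) and DESeq2 (adjusted p = 1.23e-08) on the recovered reads called it too. Without both cultures of CAV1-/- replicate 1, the mouse with the high leukocyte markers, the log2 fold change was -0.57 (SE 0.074, limma adjusted p = 0.0675). Leaving out any 1 CAV1-/- culture gave limma adjusted p-values of 0.0657 to 0.0696, and leaving out any 1 WT culture gave 0.0249 to 0.0379. With reads thinned to the total of the shallowest library, it was -0.54 (limma adjusted p = 0.0160).

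Because Met was the member with the smallest p on stretch, the bases before its start are shown. They are the first 93 bases of the RefSeq window (GRCm38.p6, plus strand, chr6:17463707-17463799), 75.3% of them G or C. They end on the base before the start that GENCODE M21 gives, whereas RefSeq starts the gene further on, at 17463957. The bases between these starts were not searched. Capitals mark a match to the GC box GGGCGG, the motif of SP1-type factors, searched on both strands.
Met: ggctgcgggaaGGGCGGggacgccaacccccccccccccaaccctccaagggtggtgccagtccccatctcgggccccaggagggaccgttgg
Of 32851 mouse promoter windows, 9.67% held a GC box in their own first 93 bases. Those positions are set by the RefSeq start of each gene, so they need not lie next to a GENCODE start as they do for Met. Neither the TEAD motif GGAATG, bound by the partners of YAP (4.95% of windows), nor the AP-1 motif TGANTCA (2.29% of windows) matched here on either strand. Met starts 122.3 kb beyond the end of Cav1 on the same chromosome.

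Pdgfrb (ENSMUSG00000024620, chromosome 18 from 61045150 to 61085061) encodes the receptor that binds PDGF-BB and marks mural cells and fibroblasts. WT MCs held 37.2 and 204 TMM-normalized CPM in static culture and 62.9 and 261 on stretch. The CAV1-/- values were 69.4 and 150 in static culture and 123 and 197 on stretch. The groups overlapped because the mice differed by more than the average effect of stretch, but within each mouse the stretched culture was higher. The log2 differences were 0.74 and 0.35 in WT mice and 0.82 and 0.39 in CAV1-/- mice. Their average was 0.58 (SE 0.093, 95% interval 0.36 to 0.79), and Pdgfrb thus rose (limma adjusted p = 0.0304). It was called by edgeR (adjusted p = 0.0389) and DESeq2 (adjusted p = 4.06e-05) too. Without CAV1-/- replicate 1 its log2 fold change was 0.50 (limma adjusted p = 0.106), without a culture of CAV1-/- replicate 2 the adjusted p was 0.0774 or 0.0781, and without a culture of WT replicate 1 it was 0.0713 or 0.0731. The summed mural cell markers were lower on stretch in replicate 1 and higher in replicate 2 of both genotypes, and single markers differed. Cspg4 was higher on stretch in each mouse, at 5.32 against 7.15 and 39.3 against 74.2 in WT mice. In CAV1-/- mice it was at 8.65 against 23.1 and 3.70 against 20.6. Notch3 and Myh11 were lower on stretch in each mouse. Kcnj8 cannot be read this way, since it was at or below 0.350 outside CAV1-/- replicate 2. In CAV1-/- replicate 1 it was at 0.0824 against 0.0485, under the floor of 3 reads.

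Pdgfra (ENSMUSG00000029231, chromosome 5 from 75152292 to 75198215) encodes the other PDGF receptor, which binds the A, B and C chains and marks fibroblasts. WT MCs held 264 and 603 TMM-normalized CPM in static culture and 154 and 492 on stretch. CAV1-/- MCs held 55.4 and 706 in static culture and 19.3 and 490 on stretch. Every mouse had the lower value on stretch, and the size differed, with log2 differences of -0.77 and -0.29 in WT and -1.47 and -0.53 in CAV1-/- mice. The average of -0.77 (SE 0.17, 95% interval -1.17 to -0.36) did not pass the adjustment (limma adjusted p = 0.0679), nor did it with edgeR (0.0788) or DESeq2 (0.0542). The summed fibroblast markers were also lower on stretch in each of the 4 mice, at 15029 against 12379 and 25968 against 19504 in WT. In CAV1-/- mice they were at 12563 against 12019 and 28700 against 25208. Of the single markers, Dcn, Col1a2, Col3a1 and Cd34 were lower in each mouse, and the others were not. Col1a1 was higher on stretch in CAV1-/- replicate 1 (6884 against 7782), and Thy1 and Mfap5 were higher in replicate 2 of both genotypes. The ratio of Pdgfra to Pdgfrb per kilobase was lower on stretch in every mouse, at 3.88 against 1.34 and 1.61 against 1.03 in WT and at 0.436 against 0.0856 and 2.58 against 1.36 in CAV1-/- mice.

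The ligands of these receptors gave smaller or less certain differences. Pdgfb (ENSMUSG00000000489, chromosome 15 from 79995874 to 80014977), which encodes the PDGF-B chain, was the lowest member and rested on few reads. The WT values were 2.10 and 2.75 TMM-normalized CPM (30 and 34 reads) in static culture and 3.80 and 3.88 (77 and 63 reads) on stretch. The CAV1-/- values were 3.21 and 0.411 (39 and 4 reads) in static culture and 4.37 and 1.86 (90 and 34 reads) on stretch. Each mouse was higher on stretch, with an average log2 fold change of 0.60 (SE 0.15, limma adjusted p = 0.0877). Pdgfa (ENSMUSG00000025856, chromosome 5 from 138976014 to 138997370), which encodes the PDGF-A chain, was at 16.7 and 29.1 in static and at 21.4 and 32.3 in stretched WT MCs. CAV1-/- MCs held 28.8 and 24.5 in static culture and 41.5 and 25.8 on stretch. It too was higher on stretch in each mouse, by an average log2 fold change of 0.27 (SE 0.093, limma adjusted p = 0.158). Pdgfa shares 813 exon bases with the antisense gene 6330403L08Rik, and since the library kit does not mark strand, their reads cannot be told apart.

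The other 5 members did not move one way in all mice. Their average log2 fold changes on stretch were 0.50 for Pdgfc (SE 0.21), 0.14 for Fgfr1 (SE 0.10), 0.13 for Hgf (SE 0.15), 0.09 for Fgf2 (SE 0.16) and -0.28 for Fgf7 (SE 0.20). Their limma adjusted p-values lay between 0.228 and 0.781. In 4 of these 5 genes 1 mouse of 4 went against the others, namely WT replicate 1 for Pdgfc, Fgf2 and Fgfr1 and CAV1-/- replicate 1 for Hgf. Fgf7 was higher on stretch in 1 mouse, WT replicate 2.

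**Figure D3:**
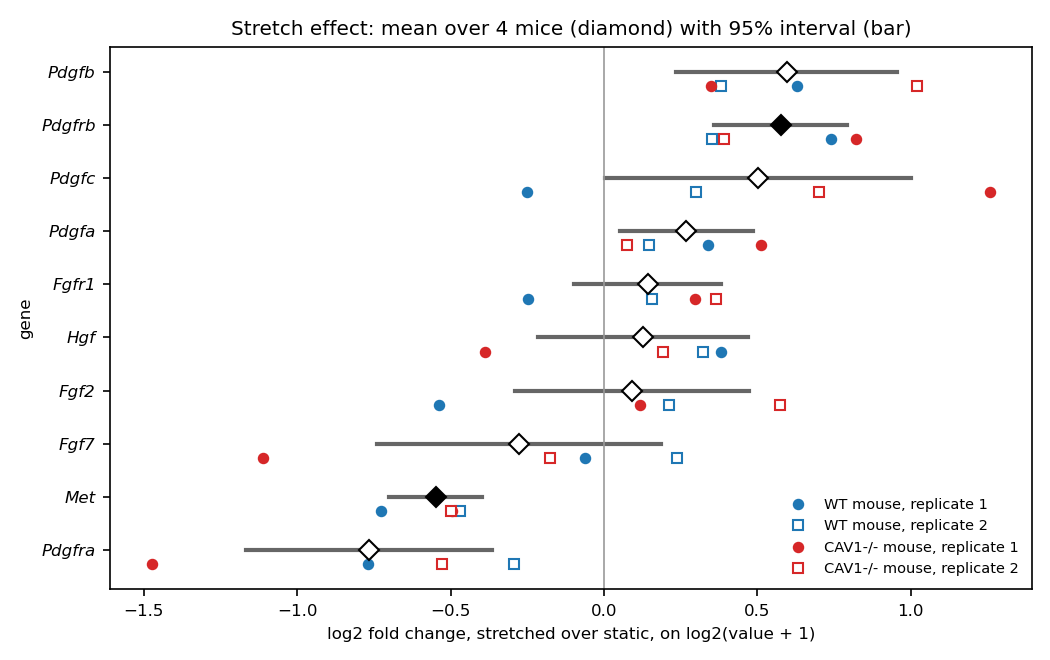
Log2 fold change of stretched over static culture for each member: the diamond is the mean over 4 mice (black where the limma adjusted p is under 0.05), the bar its 95% interval, and the symbols below it are the single mice. The 4 symbols of Met lie between -0.73 and -0.47 and those of Pdgfrb between 0.35 and 0.82.

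Taken within 1 genotype, where the fit compares 2 stretched with 2 static cultures without the mouse as a block, limma called 0 of 13665 genes in WT (0%) and 0 in CAV1-/- MCs (0%). No member was called, and at an unadjusted p of 0.05 there were 310 genes in WT (2.27%) and 286 in CAV1-/- MCs (2.09%), of which 1 member in each, Met. Over all genes DESeq2 called 3 in WT (0.022%) and 7 in CAV1-/- MCs (0.0512%) and edgeR 0 in both, none of them a member. The log2 fold change of Met was -0.60 (SE 0.13, 95% interval -0.92 to -0.28) in WT and -0.50 (SE 0.13, 95% interval -0.81 to -0.18) in CAV1-/- MCs. With the mouse as a block its limma adjusted p-values were 0.144 and 0.152. An exact permutation test of 2 against 2 cultures cannot give a two-sided p below 0.333.

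Whether the effect of stretch depended on genotype was asked by the interaction. Limma called 0 of 13665 genes (0%), with 66 at an unadjusted p of 0.05 (0.483%), none of which was a member, and edgeR and DESeq2 called 0 as well. That fit leaves out the mouse, although each mouse gave a static and a stretched culture. With the mouse as a block limma again called 0 genes, with 581 at an unadjusted p of 0.05 (4.25%), of which 1 member, Pdgfc. For Met the difference between the effects, CAV1-/- minus WT, was 0.10 on the log2 scale, with a 95% interval of -0.35 to 0.55 without and of -0.21 to 0.41 with the mouse as a block. For Pdgfrb it was 0.06, with intervals of -3.32 to 3.44 and of -0.41 to 0.53. The widest gap among the ligands was that of Pdgfc at 0.95, with intervals of -0.98 to 2.89 and of 0.34 to 1.57 (limma adjusted p = 0.947 with the block). Its log2 differences on stretch were -0.25 and 0.30 in WT mice and 1.26 and 0.70 in CAV1-/- mice. No member moved one way in both WT mice and the other way in both CAV1-/- mice, a pattern held by 8.98% of all genes.

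The second comparison addressed the absence of Cav1. In static cultures limma called 10 of 13665 genes (0.0732%), 1 higher and 9 lower in CAV1-/- MCs, and none of the 10 members. At an unadjusted p of 0.05 there were 1117 genes (8.17%), among them the members Pdgfc, Fgf2 and Fgfr1. In stretched cultures it called 8 genes (0.0585%), 1 higher and 7 lower, and none of the members, with 856 genes (6.26%) and the member Fgf2 at an unadjusted p of 0.05. Read by overlap alone, 4 members had groups that did not overlap in static culture, beside 36.9% of all genes. Pdgfc, Fgf2 and Fgfr1 were lower in CAV1-/- MCs (20.8% of all genes were) and Fgf7 was higher (16.1%). In stretched culture Pdgfc and Fgf2 were lower without overlap (15.9% of all genes), and in either direction it was 30.5% of all genes. DESeq2 called 309 genes (2.26%) in static culture, among them Pdgfc and Fgf2, and 238 (1.74%) with 0 members in stretched culture. Pdgfc and Fgf2 were also the members whose 4 CAV1-/- libraries lay below all 4 WT libraries, a pattern of 5.88% of all genes.

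Pdgfc (ENSMUSG00000028019, chromosome 3 from 81036416 to 81214040, plus strand) encodes the PDGF-C chain, a ligand of PDGFR-α that is secreted in a latent form and opened by proteases. WT MCs held 53.2 and 103 TMM-normalized CPM in static culture and 44.6 and 127 on stretch. The CAV1-/- values were 13.1 and 23.1 in static culture and 32.7 and 38.2 on stretch. The CAV1-/- libraries were lower in both conditions, by the wider margin in static culture. The log2 fold change, CAV1-/- over WT, was -2.02 (SE 0.56, 95% interval -3.39 to -0.66, limma adjusted p = 0.361) in static and -1.07 (SE 0.56, 95% interval -2.43 to 0.30, limma adjusted p = 0.904) in stretched cultures. DESeq2 called it in static (adjusted p = 0.0169) and edgeR did not (0.402). Without CAV1-/- replicate 1 the static difference was -1.64 (limma adjusted p = 0.671). Pdgfc shares 147 exon bases with the antisense gene Gm16000, whose reads cannot be told apart from its own without strand.

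The promoter of Pdgfc is shown because its transcript had the largest static genotype difference among the members whose groups did not overlap. The RefSeq window (GRCm38.p6, plus strand, chr3:81036166-81036415) holds the 250 bases before the start, 50.8% of them G or C. Capitals mark the single match of the 3 motifs named above, GGAATG of TEAD factors, which 12.6% of the 32851 windows of this length held on either strand.
Pdgfc: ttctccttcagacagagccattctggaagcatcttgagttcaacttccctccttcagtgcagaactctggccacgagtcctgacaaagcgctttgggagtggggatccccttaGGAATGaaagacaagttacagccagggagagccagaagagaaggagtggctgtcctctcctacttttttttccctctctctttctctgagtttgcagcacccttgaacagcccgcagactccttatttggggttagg
The GC box (32.7% of windows) and the AP-1 motif (6.75%) did not match in these bases, and a match is a description of letters, not of a bound site.

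Fgf2 (ENSMUSG00000037225, chromosome 3 from 37348346 to 37410108) encodes basic FGF, which leaves cells without a classical signal peptide and is held by heparan sulfate. The WT values were 39.7 and 39.2 TMM-normalized CPM in static culture and 27.1 and 45.5 on stretch. CAV1-/- MCs held 14.6 and 15.4 in static culture and 15.9 and 23.4 on stretch. The static groups were tight and far apart, and the stretched groups came close to each other. The log2 fold change was -1.34 (SE 0.28, 95% interval -2.02 to -0.65, limma adjusted p = 0.207) in static and -0.83 (SE 0.28, 95% interval -1.51 to -0.14, limma adjusted p = 0.651) in stretched cultures. DESeq2 called it in static (adjusted p = 0.00851), and edgeR did not (0.244). Fgf2 shares 640 exon bases with Nudt6, its antisense neighbour, whose reads cannot be told apart from its own. The summed mesothelial markers were split by genotype in the same way as Pdgfc and Fgf2, and across the 8 libraries Pdgfc and Fgf2 had a Pearson r of 0.92 on log2(value + 1), from 4 mice that each enter with 2 cultures.

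Fgfr1 (ENSMUSG00000031565, chromosome 8 from 25513654 to 25575718) encodes the main FGF receptor of mesenchymal cells. Static WT MCs held 365 and 355 TMM-normalized CPM and static CAV1-/- MCs 293 and 249, groups that did not overlap. On stretch it was at 308 and 395 in WT and at 361 and 321 in CAV1-/- MCs, where the groups overlapped. The log2 fold change was -0.41 (SE 0.17, limma adjusted p = 0.597) in static and -0.04 (SE 0.17, limma adjusted p = 1.00) in stretched cultures. Per kilobase, Fgfr1 was above Met in all 8 libraries, at 1.16 to 1.64 times its level in static and at 2.12 to 2.44 times its level in stretched cultures.

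Fgf7 (ENSMUSG00000027208, chromosome 2 from 126034658 to 126091185) encodes keratinocyte growth factor, a stromal ligand of the epithelial form of FGFR2. Static WT MCs held 7.55 and 48.5 TMM-normalized CPM and static CAV1-/- MCs 49.2 and 87.7. On stretch it was at 7.20 and 57.4 in WT and at 22.2 and 77.5 in CAV1-/- MCs. The static groups just failed to overlap, at 48.5 against 49.2, and WT replicate 1 stood apart at the low end in both conditions. The log2 fold change was 1.70 (SE 1.22, limma adjusted p = 0.828) in static and 0.96 (SE 1.22, limma adjusted p = 0.993) in stretched cultures. Relative to Fgf2 per kilobase, Fgf7 was at 0.397 to 2.64 times its level in WT and at 2.92 to 11.9 times its level in CAV1-/- libraries. This split is not separate from that of Fgf2, which was itself lower in every CAV1-/- library, whereas Fgf7 overlapped between genotypes over both conditions. Among the PDGF chains, the ratio of Pdgfa to Pdgfc per kilobase was 0.416 to 0.783 in WT and 1.10 to 3.58 in CAV1-/- libraries. Here too the denominator, Pdgfc, was lower in every CAV1-/- library, whereas Pdgfa overlapped. How often such ratios split by genotype among all gene pairs was not counted.

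The remaining members showed no genotype difference beyond the spread between mice. The genotype difference of Met was 0.00 on the log2 scale in static culture (95% interval -0.32 to 0.32) and 0.10 in stretched culture (95% interval -0.22 to 0.42), the narrowest intervals of the 10 members. Those of Pdgfra and Hgf were the widest, from -5.80 to 2.86 for Pdgfra in stretched culture and from -3.77 to 3.80 for Hgf in static culture. The direction of Pdgfra turned to higher in CAV1-/- MCs without CAV1-/- replicate 1, at 0.82 and 0.83 on the log2 scale in static and stretched cultures.

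**Figure D4:**
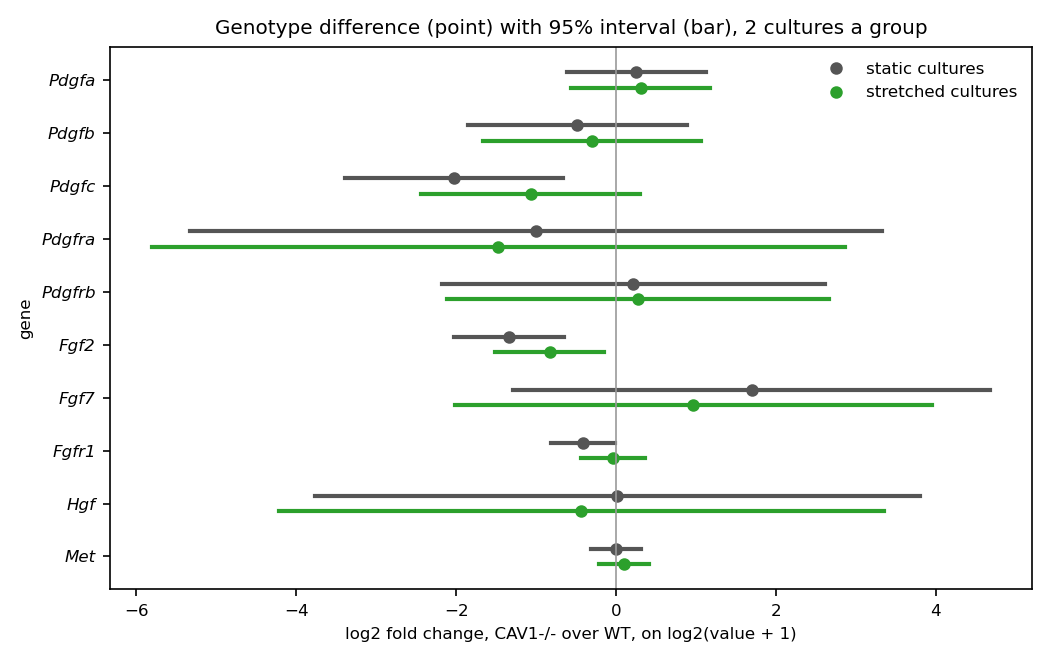
Log2 fold change of CAV1-/- over WT MCs for each member in static and stretched cultures (points) with the 95% interval of limma (bars), 2 cultures in each group. Before adjustment over all genes, the intervals of Fgf2 in both conditions lie below 0. Those of Pdgfc (-3.39 to -0.66) and Fgfr1 (-0.81 to -0.0095) do so in static culture. The interval of Pdgfra spans -5.80 to 2.86 in stretched culture.

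The spread between mice of 1 genotype was wide in 4 members, though for Fgf7 and Pdgfrb it was narrower in CAV1-/- than in WT MCs. Hgf (ENSMUSG00000028864, chromosome 5 from 16553495 to 16620152), the ligand of MET, was at 1.89 and 24.9 TMM-normalized CPM in static and at 2.76 and 31.4 in stretched WT MCs. The CAV1-/- values were 3.54 and 15.8 in static culture and 2.47 and 18.2 on stretch. Replicate 2 was therefore higher in all 4 pairs, by 13.2 and 11.4 times in WT and by 4.47 and 7.36 times in CAV1-/- MCs. For Pdgfra replicate 2 was higher by 2.28 and 3.18 times in WT and by 12.8 and 25.4 times in CAV1-/- MCs. For Fgf7 the ratios were 6.42 and 7.97 in WT and 1.78 and 3.49 in CAV1-/- MCs, and for Pdgfrb they were 5.49 and 4.15 in WT and 2.16 and 1.60 in CAV1-/- MCs. The libraries of replicate 2 lay above all those of replicate 1 for Pdgfra, Pdgfrb and Hgf, a pattern of 9.80% of all genes, and the summed fibroblast markers were split the same way. The numbers 1 and 2 name mice of each genotype and pair none of them. Met and Fgfr1 differed least, with ratios of 0.917 to 1.21 and 0.849 to 1.28.

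The genes whose log2(value + 1) followed a member most closely over the 8 libraries were named for the 8 members that varied at least 2 times. For Pdgfra these were Nasp (Pearson r 0.99) and Elp3 (0.99), and for Pdgfrb they were Klhl26 (0.99) and Fam20a (0.98). Fgf7 was followed by Prrx1 (0.98), a transcription factor of mesenchyme, and Nsg1 (0.98), and Hgf by Smco4 (0.99) and Tmod2 (0.99). Fgf2 was followed by Dapp1 (0.98) and Kcnk6 (0.97) and Pdgfc by Phf20l1 (0.96) and Ist1 (0.96). For Pdgfa these were Lpin3 (0.99) and Il17ra (0.97), and for Pdgfb they were Fam126b (0.96) and Fam134b (0.96). These are the highest coefficients among all tested genes, over 8 points from 4 mice, and they are given as a description.

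Beyond the members, 98 further genes of the 3 systems were listed, of which 79 were in the table and were tested. These lists too were chosen with earlier results of these data known. On stretch, averaged over the mice, 10 of the 79 passed the limma threshold, 3 higher and 7 lower, beside 2.25% of all genes, and the median log2 fold change of the 79 was 0.01. Without CAV1-/- replicate 1 none of the 79 passed, and leaving out 1 culture in turn left 0 to 5 of them. By list, 0 of 2 other PDGF genes, 0 of 8 other FGF ligands, 3 of 8 FGF receptors and binding proteins, 2 of 9 genes around HGF and MET, 1 of 30 adaptors and transducers, 2 of 18 ERK feedback and FGF-response genes and 2 of 5 PDGF-processing genes passed.

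Among the FGF receptors and binding proteins, Fgfr2, the receptor of FGF7, fell by 0.72 on the log2 scale (SE 0.11, limma adjusted p = 0.0287), from 56.5 and 44.2 TMM-normalized CPM to 28.2 and 22.5 in WT and from 20.3 and 35.9 to 14.0 and 26.1 in CAV1-/- MCs. Sdc4, a heparan sulfate proteoglycan of focal adhesions, fell by 0.59 (SE 0.057, limma adjusted p = 0.0129), and Flrt3, a transmembrane partner of FGF receptors, rose by 0.46 (SE 0.089, limma adjusted p = 0.0498). The call of Flrt3 was lost with a pseudocount of 5 (limma adjusted p = 0.0591) and with reads thinned to equal totals (0.0607). Around MET, Spint2, an inhibitor of the proteases that activate HGF, fell by 0.60 (SE 0.088, limma adjusted p = 0.0237). Mst1r, which encodes the MET-related receptor RON, fell by 0.47 (SE 0.077, limma adjusted p = 0.0313), beside the fall of Met itself.

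Downstream, Spry1, a feedback inhibitor of receptor tyrosine kinases, fell by 0.75 (SE 0.11, limma adjusted p = 0.0230), and the early growth response gene Egr1 fell by 0.50 (SE 0.070, limma adjusted p = 0.0220). Of the 18 genes of this list 10 were higher on stretch, and their median was 0.05. Of the PDGF-processing proteases, the proprotein convertase gene Furin rose by 0.53 (SE 0.099, limma adjusted p = 0.0464, edgeR 0.0513, limma with a pseudocount of 5 0.0522) and Pcsk6 fell by 0.79 (SE 0.099, limma adjusted p = 0.0164). Each gene named as called here moved in the stated direction in each of the 4 mice.

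Between genotypes none of the 79 genes passed limma in either condition. At an unadjusted p of 0.05 there were 10 in each, beside 8.17% of all genes in static and 6.26% in stretched culture. The list medians of log2 fold change, CAV1-/- over WT in static culture, lay between -0.10 and 0.13 for 6 of the 7 lists, and the 8 other FGF ligands had a median of -0.89, beside -0.01 over all genes. By the rule of the 2 largest differences in each list among groups that did not overlap, Fgf1, acidic FGF, was at 26.0 and 30.4 TMM-normalized CPM in static and at 18.3 and 36.2 in stretched WT MCs. CAV1-/- MCs held 0.412 and 1.64 in static culture and 1.26 and 3.34 on stretch, with log2 fold changes of -3.91 (SE 0.49, limma adjusted p = 0.0728) and -3.10 (SE 0.49, limma adjusted p = 0.169). DESeq2 called Fgf1 in both conditions (adjusted p = 3.03e-08 and 4.06e-05). Spint2 was at 57.2 and 73.2 in static WT and at 11.5 and 14.6 in static CAV1-/- MCs, with log2 fold changes of -2.24 (limma adjusted p = 0.0697) in static and -2.13 (limma adjusted p = 0.0963) in stretched cultures, and was also called by DESeq2 in both. Mst1r was at 52.7 and 54.7 in static WT and at 23.2 and 32.6 in static CAV1-/- MCs, with log2 fold changes of -0.94 and -1.10 in static and stretched cultures (limma adjusted p = 0.319 and 0.335), and DESeq2 called it in stretched cultures (adjusted p = 0.0187).

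The other genes named by this rule had limma adjusted p-values of at least 0.285. DESeq2 called 1 of them, Il17rd, in static culture (adjusted p = 0.0400), and 1 listed gene outside the rule, Fgf18, named after its values were seen, also in static culture. In static culture the log2 fold changes were -1.34 for Il17rd, -1.25 for Fgf9, -1.05 for Pik3r1, -1.002 for Spry4, -0.86 for Fgfr2, -0.74 for Flrt2, -0.61 for Gab1 and -0.24 for Pcsk7. In stretched culture they were -1.21 for Fgf21, -0.99 for Spry4, -0.90 for Il17rd, -0.62 for Fgfr3, -0.36 for Gab1, -0.20 for Flrt2, 0.52 for Furin, 0.59 for Pdgfrl and 0.77 for Cbl. Il17rd and Spry4 encode feedback inhibitors of FGF-ERK signaling, and both were lower in CAV1-/- MCs in each condition. The lack of overlap was required by the rule that named them. Of all genes, 20.8% in static and 15.9% in stretched culture were lower without overlap. The 18 genes of their list had no common direction, with 9 higher in CAV1-/- MCs in static and 11 in stretched culture. Fgf9 and Fgf21 were low, at 0.055 to 4.76 and 0.103 to 3.65 TMM-normalized CPM.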

How the data were processed

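RNAseq (polyA-selected, 61-base single reads, a kit that does not mark strand) was analysed in 8 cultures of primary mouse MCs. Adapters were removed by the authors with Cutadapt, RSEM gave read estimates per gene on the GRCm38 transcriptome, and the deposited signal is CPM scaled by TMM factors from edgeR. In each library 100% of the values were whole multiples of the value of 1 read (tolerance 0.01), so reads were recovered. No other column of per-sample values was left unused.

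The 13665 of 13687 genes that reached 1 in 2 or more of the 8 libraries were tested by limma (version 3.58.1, R 4.3.3) on log2(value + 1), with an intensity trend and Benjamini-Hochberg adjustment over all genes, and called at an adjusted p under 0.05. Stretch over the 4 mice was fitted with the mouse as a block. The labels give the animal of each culture, and static and stretched cultures of a mouse deviated together (r = 0.703 in WT and 0.850 in CAV1-/-). The other comparisons had 1 mean per group and 1 estimate of the spread from all 8 cultures. The 2 cultures of a mouse entered that estimate as if independent. Its SEs, intervals and p-values thus count 4 mice as 8 cultures. With the mouse as a block, p-values measure how far the response to stretch varied between these mice. None of them reaches beyond these mice.

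The members and lists were chosen with earlier results of these data known. Named were all members, Cav1, listed genes that were called, the 2 largest non-overlapping genotype differences in each list, and the 2 genes most correlated with each member. The values of 1 called gene are not reported here. Alternatives were pseudocounts of 0.1 and 5, no filter, a mean of at least 5 (10797 genes), median-of-ratios rescaling, the fit with or without a block, edgeR's quasi-likelihood test (4.0.16) and DESeq2 (1.42.0) on recovered reads, and each culture left out. Leaving out CAV1-/- replicate 1 and thinning reads were chosen after seeing the values. Tests were checked on simulated data. Positions and exon lengths are from GENCODE M21, which held 13597 of the gene identifiers, and promoter bases from RefSeq on GRCm38.p6, which matched 7 of 10 members.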

Additional observations from a re-analysis of the deposited data

How the results depend on the processing

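The calls of stretch over the 4 mice depended most on the CAV1-/- mice. Without CAV1-/- replicate 1, 5 genes, 0 members and 0 other listed genes were called. Leaving out 1 CAV1-/- culture in turn gave 0 to 4 genes and 0 members. Leaving out 1 WT culture in turn gave 140 to 163 genes and 1 to 2 members. Over all cultures left out in turn, 0 to 5 listed genes were called. DESeq2 called 777 genes. Met and Pdgfrb remained called with both pseudocounts, both filters, median-of-ratios rescaling, thinned reads, edgeR and DESeq2. Depth limits Pdgfb (4 to 90 reads) and Hgf in replicate 1 (27 to 56 reads) most among the members.

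Without the block by mouse, the stretch comparison over 4 mice called 0 genes, 0 members and 0 listed genes, and Met was at -0.55 (limma adjusted p = 0.452) and Pdgfrb at 0.58 (0.943). With that block, stretch called 1 gene in CAV1-/- MCs and 0 in WT, and the interaction 0. Between genotypes same-numbered mice are different animals, although they deviated together (r = 0.522 in static and 0.484 in stretched cultures). With a replicate block on that number limma called 246 genes (1.8%), 2 members (Pdgfc, adjusted p = 0.0364, and Fgf2, 0.0481) and 4 listed genes in static cultures, and 110 genes (0.805%), 0 members and 4 listed genes in stretched cultures. The listed genes were Fgf1, Spint2, Mst1r and Spry4 in both, and Cav1 was called in both (adjusted p = 0.00722 and 0.00453).

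DESeq2 called 3 genes for stretch in WT and 7 in CAV1-/- MCs. Between genotypes it called 309 genes, 2 members and 4 listed genes in static and 238 genes, 0 members and 3 listed genes in stretched cultures, against 2 genes by edgeR in static cultures. Without CAV1-/- replicate 1, limma called 0 genes in static and 0 in stretched cultures, and leaving out 1 culture gave 0 to 6 and 0 to 5. The cause of these differences was not tested.

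Members that were not called could turn in sign. Apart from stretch over the 4 mice, the fits below had no block by mouse. With 1 culture left out, stretch within 1 genotype and the interaction therefore also took in differences between mice. For example, Pdgfrb had log2 differences of 0.74 and 0.35 within the WT mice, and Pdgfc of -0.25 and 0.30. By edgeR and DESeq2, Hgf was at 0.10 and 0.095 for stretch in CAV1-/- MCs and at -0.47 and -0.45 between static genotypes (-0.10 with a pseudocount of 5), and Pdgfrb was at -0.14 and -0.12 between static and -0.017 and -0.010 between stretched genotypes. Met was at 0.023 with median-of-ratios rescaling and 0.025 with DESeq2 between static genotypes. Without CAV1-/- replicate 1, Pdgfra was at 0.82 and 0.83 between static and stretched genotypes, Pdgfa at -0.025 and Hgf at 0.80 between stretched genotypes, and Fgf7 at 0.00053 for stretch over the mice. With 1 culture left out, stretch in WT ran from -0.14 to 0.62 for Pdgfa, -0.72 to 0.77 for Pdgfc, -1.36 to 0.30 for Pdgfra, -0.67 to 1.76 for Pdgfrb, -0.53 to 0.20 for Fgf2, -1.33 to 1.505 for Fgf7, -0.23 to 0.13 for Fgfr1 and -1.23 to 1.93 for Hgf. In CAV1-/- MCs it ran from -0.037 to 0.63 for Pdgfa, -0.11 to 1.47 for Pdgfb, -3.30 to 1.297 for Pdgfra, -1.52 to 0.24 for Fgf7 and -1.33 to 1.14 for Hgf. The static genotype difference ran from -0.13 to 0.64 for Pdgfa, -1.27 to 0.31 for Pdgfb, -2.83 to 0.82 for Pdgfra, -0.995 to 1.43 for Pdgfrb, -1.56 to 1.60 for Hgf and -0.062 to 0.058 for Met. The stretched one ran from -0.025 to 0.64 for Pdgfa, -0.76 to 0.15 for Pdgfb, -3.77 to 0.83 for Pdgfra, -0.74 to 1.29 for Pdgfrb, -0.45 to 2.38 for Fgf7, -0.22 to 0.14 for Fgfr1, -1.99 to 1.12 for Hgf and -0.038 to 0.24 for Met. The interaction ran from -0.33 to 0.43 for Pdgfa, -0.61 to 0.97 for Pdgfb, -2.77 to 1.83 for Pdgfra, -1.15 to 1.27 for Pdgfrb, -2.15 to 0.68 for Fgf7, -2.03 to 1.13 for Hgf and -0.036 to 0.24 for Met. Over the 4 mice, stretch ran from -0.070 to 0.30 for Fgf2 and -0.45 to 0.00053 for Fgf7. Other members kept their direction with 1 culture left out.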
